A study of Mus musculus with 12 samples.

Results

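The question was whether deleting fibulin-4 in both endothelium and smooth muscle changes the aortic valve transcriptome by more, or by less, than the changes of the single deletions add up to. It was put as 1 contrast per gene, DKO − ECKO − SMKO + CTRL on the log2 scale, called the interaction below. The contrast used all 12 of the 12 libraries of the series, with 3 in each of 4 genotypes. In the study as it is known, DKO mice lack Efemp2, the fibulin-4 gene, in endothelial and smooth muscle cells together, ECKO mice in endothelial cells alone, SMKO mice in smooth muscle cells alone, and CTRL mice in neither. The labels give only these codes: the floxed and Cre alleles, the promoter behind each Cre and whatever alleles CTRL mice carry are not given there. All mice had the strain C57BL/6J;129SvEv and an age of 2 months. Entire leaflets were cut by laser from stained frozen sections of fixed hearts, and their amplified cDNA was sequenced. The labels name biological triplicates but link no animal to a library, so p-values measure the spread between these libraries.

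Fibulin-4 is a secreted glycoprotein that binds tropoelastin and lysyl oxidase and is needed for elastic fibres to form. A valve leaflet is a sheet of interstitial cells in collagen, proteoglycan and elastin, covered on each face by endothelium, with some macrophages and melanocytes inside, so either deletion can reach the matrix that the other cells share. An interaction of 0 means that the double deletion multiplied a gene's level by the product of the single-deletion folds; a positive value means that DKO lay above that product, and a negative value that it lay below. The same number is the effect of losing fibulin-4 in smooth muscle when the endothelium lacks it too, minus that effect when the endothelium has it.

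Of 6296 genes with enough counts to test, 2 had an interaction that passed the test: Id4, with a positive contrast, and Fmnl2, with a negative one (edgeR quasi-likelihood test, Benjamini-Hochberg adjusted p under 0.05; 0.0318% of genes tested). In both genes the single deletions lay on the same side of CTRL and the double deletion lay near CTRL. Id4 encodes an inhibitor of DNA binding, a helix-loop-helix protein that pairs with E proteins and keeps them off DNA. Fmnl2 encodes a formin that lengthens actin filaments at the edge of moving cells. Their promoters, from RefSeq (GRCm38.p6), are shown because they are the genes the contrast called. Each runs from 250 bases before the annotated start to 50 after it, at chr13:48260866-48261165 for Id4 and at chr2:52857618-52857917 for Fmnl2, both on the + strand. Capitals mark the hexamer GGCGCC, which reads the same on both strands, and the CCAAT box on either strand, where ATTGG is its reverse.
Id4: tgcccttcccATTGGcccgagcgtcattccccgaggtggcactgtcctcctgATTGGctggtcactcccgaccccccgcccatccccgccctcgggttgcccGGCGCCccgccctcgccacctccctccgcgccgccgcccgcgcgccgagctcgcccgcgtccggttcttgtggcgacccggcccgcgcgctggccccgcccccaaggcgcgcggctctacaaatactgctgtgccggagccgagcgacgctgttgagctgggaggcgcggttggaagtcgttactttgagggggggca
Fmnl2: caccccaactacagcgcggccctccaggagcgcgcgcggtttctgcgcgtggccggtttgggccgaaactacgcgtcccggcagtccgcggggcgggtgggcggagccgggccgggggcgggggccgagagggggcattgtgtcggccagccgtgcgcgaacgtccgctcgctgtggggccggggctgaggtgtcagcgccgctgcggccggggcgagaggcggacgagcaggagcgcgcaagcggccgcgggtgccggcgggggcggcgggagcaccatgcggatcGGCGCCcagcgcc
Both promoters were GC-rich, at 73.3% in Id4 and 78.7% in Fmnl2, against a median of 52.7% over 32851 promoters of that length. Each held 1 GGCGCC, which 11.9% of all promoters held. The Id4 promoter held 2 CCAAT boxes and the Fmnl2 window held 0, and 37.4% of all promoters held at least 1. These matches describe the letters and are not evidence of binding.

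The level of Id4, as TMM-scaled CPM, was 490.3, 313 and 170.0 in the 3 DKO libraries. It was 87.0, 115 and 75.8 CPM in ECKO, 180.3, 128 and 193 CPM in SMKO and 261, 255 and 319 CPM in CTRL. All 3 ECKO libraries lay below the other 9, all SMKO libraries lay below all CTRL libraries, and DKO overlapped both SMKO and CTRL. On the log2 scale the interaction was 2.50 ± 0.43 (SE), with an adjusted p of 0.0105. Of the single steps, DKO against ECKO passed at 1.77 ± 0.30 (adjusted p = 0.0126). ECKO against CTRL, at -1.54 ± 0.30, and SMKO against CTRL, at -0.73 ± 0.31, did not pass, and DKO differed from CTRL by 0.23 ± 0.28.

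Fmnl2 had the mirror pattern. Its level was 27.2, 19.9 and 37.3 CPM in DKO, 46.1, 75.9 and 94.1 CPM in ECKO, 98.7, 66.8 and 69.0 CPM in SMKO and 32.1, 35.5 and 37.1 CPM in CTRL. Every ECKO and SMKO library lay above every DKO and CTRL library, and the DKO and CTRL ranges overlapped. The counts behind these levels were low, at 6, 10 and 9 in DKO and 9, 52 and 41 in ECKO. They were 58, 13 and 5 in SMKO and 22, 23 and 5 in CTRL. The order of some libraries thus rests on few counts, such as 5 in SMKO 3 and 5 in CTRL 3. The interaction was -2.78 ± 0.49 (adjusted p = 0.0105). DKO fell relative to ECKO, with a log2 difference of -1.50 ± 0.36 (adjusted p = 0.0467), whereas the steps of ECKO against CTRL (1.13 ± 0.32), SMKO against CTRL (1.29 ± 0.34) and DKO against SMKO (-1.65 ± 0.37) did not pass.

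Both calls rested on few libraries. Without DKO 1, DKO 2, ECKO 3, SMKO 1 or CTRL 1, taken one at a time, 0 genes were called, and without ECKO 2 only Id4 was. The sign of both contrasts held in every alternative that tested the gene. The range was 2.13 to 2.83 for Id4 and -3.00 to -2.23 for Fmnl2.

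**Figure D1:**
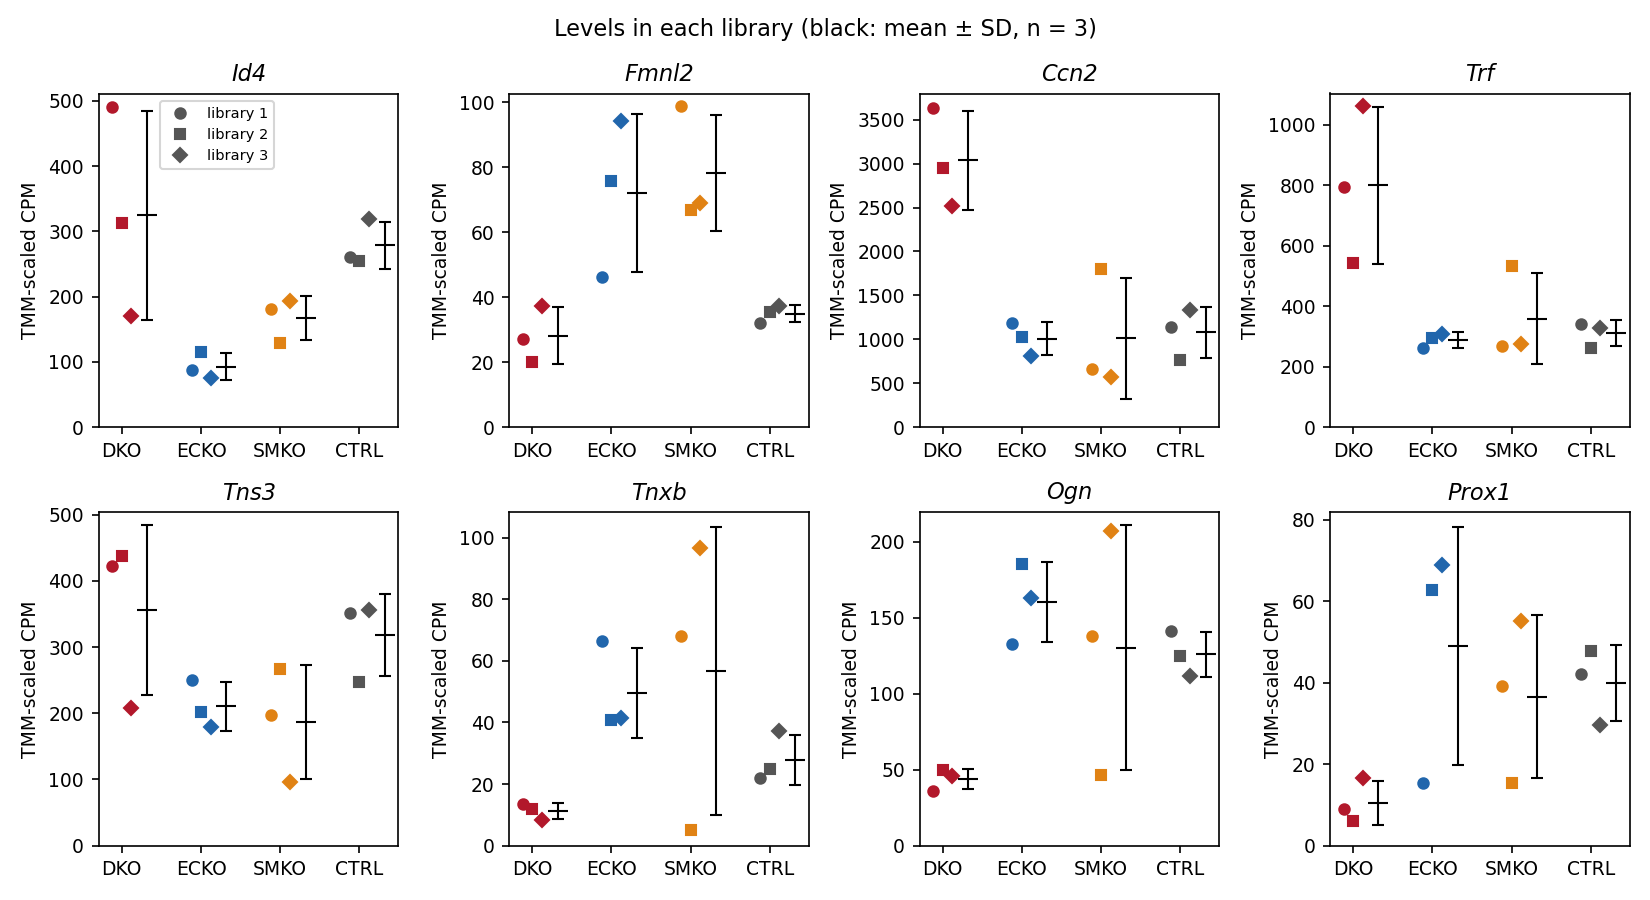
Levels of 8 genes (TMM-scaled CPM, linear axis from 0) in the 3 libraries of DKO, ECKO, SMKO and CTRL, with 1 marker shape per library number and the mean ± SD (n = 3) in black. Id4 is lowest in ECKO and Fmnl2 is highest in the single deletions, Ccn2 and Trf are highest in DKO, and for Tnxb and Ogn the second SMKO library lies with DKO.

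The libraries held 74827 to 615665 counts, with the fewest in SMKO 3 and CTRL 3. Mitochondrially encoded genes took 10.46% to 20.98% of counts in DKO, 12.88% to 20.87% in ECKO, 15.11% to 28.55% in SMKO and 10.52% to 26.74% in CTRL. Counts of Y-linked genes reached 28 to 89 in DKO 3, SMKO 1 and CTRL 3 and were 0 or 1 in the other 9, so no ECKO library was among those with such counts. The tissue markers fitted a leaflet: the summed level was 19296 to 46016 CPM for valve interstitial markers, 1629.9 to 2954 CPM for endothelial markers and 911.9 to 1249 CPM for contractile markers. Heart muscle markers summed to 25.6 to 123.2 CPM in 11 libraries and to 1004 CPM in ECKO 2. Efemp2 had 0 counts in all 3 DKO libraries, 3, 15 and 8 in ECKO, 4, 0 and 0 in SMKO, and 58, 23 and 9 in CTRL. Pooled per group and divided by the unscaled totals, this was 0 CPM in DKO (exact Poisson 95% interval 0 to 3.83) and 21.6 CPM in ECKO (14.1 to 31.7). It was 4.61 CPM in SMKO (1.26 to 11.8) and 69.3 CPM in CTRL (55.8 to 85.2). These intervals cover counting error only. Efemp2 was lower in SMKO than in CTRL over the whole leaflet, where contractile markers summed to less than interstitial markers. Which cells of the leaflet lost Efemp2 in SMKO, ECKO or DKO was not tested. Losing fibulin-4 in smooth muscle or in endothelium names a genotype here and not a measured site of loss. The Efemp2 interaction of -2.24 ± 1.61 did not pass, and with DKO at 0 the fitted size depends on the prior count added to it.

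SMKO 2 stood apart from the other SMKO libraries and lay toward DKO for many of the genes below, which the contrast reads with the opposite sign. It lay beyond SMKO 1 and SMKO 3 on the DKO side in 57.1% of all tested genes. That side was set by the mean of SMKO 1 and SMKO 3, so spread in these libraries raises the share by construction. The share was not taken for SMKO 1 or SMKO 3 in turn, so 57.1% has no reference. For genes named below that passed without SMKO 2 but not in the fit that called Id4 and Fmnl2, both contrasts are given. Some of them, such as Prxl2a and Tnxb, also passed with all libraries and no filter on low counts. SMKO 2 was singled out after the values were seen. Leaving it out keeps only SMKO 1 and SMKO 3 and favours genes in which SMKO 2 lay toward DKO. The adjusted p-values without SMKO 2 thus describe how results depend on this library and are not a test of the interaction.

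Across the transcriptome the interaction was centred on 0. It was positive in 3278 and negative in 3018 of the genes, with a median of 0.03, and 90% of genes lay between -1.04 and 0.99. At an unadjusted p under 0.05 there were 392 genes (6.23%), 192 positive (3.05%) and 200 negative (3.18%), where 315 would be expected with no interaction in any gene. Under upper-quartile scaling the split was 127 positive and 282 negative, with the median of all genes at -0.08. The contrast adds up 4 group means, and its median SE was 0.52, against 0.34 to 0.39 for a difference between a pair of groups. After the 2 called genes the next, Tnxb, had an adjusted p of 0.578.

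The single steps differed in how many genes they called. DKO against ECKO called 36 genes (0.572%; 22 higher and 14 lower). DKO against SMKO called 0 (0.00%), with 396 genes at an unadjusted p under 0.05, and DESeq2 called 3. ECKO against CTRL called 0 (0.00%), with 273 at that level and 2 by DESeq2, and SMKO against CTRL called 0 (0.00%), with 345 at that level and 0 by DESeq2. DKO against CTRL called 31 genes (0.492%). Which step passes does not show that the steps differ; that difference is the interaction itself.

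The 392 genes were sorted by where the groups lay relative to CTRL, as a description. In 97 of them (24.7%) both single deletions lay at least 0.5 away from CTRL in 1 direction on the log2 scale while DKO was within 0.5, as in Id4 and Fmnl2. Over all 6296 genes this shape made up 3.03%. In 34 (8.67%, against 1.87% of all) both single deletions were within 0.5 of CTRL and DKO was at least 1 away. In 15 (3.83%, against 0.286%) both single deletions lay at least 0.5 away on 1 side and DKO at least 0.5 away on the other, all with a negative contrast. In 24 (6.12%, against 3.27%) all 3 lay at least 0.5 away on the same side with DKO short of the sum of the single changes. With all 3 at least 0.5 away on the same side and DKO at or beyond that sum there were 0 of the 392, against 14 of all genes (0.222%). Genes with small single changes that DKO exceeds, such as Cd36, stand under the shape with both single deletions within 0.5. The remaining 222 (56.6%) fell into no shape. A large interaction favours some shapes by construction, so the excess of these shares is not a test. On the linear CPM scale, where the contrast asks about sums and not products, 0 of the 392 had the opposite sign, against 11.7% of all tested genes. The 392 were picked by their log2 contrast and all genes include many contrasts near 0, so this comparison is not a test either.

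**Figure D2:**
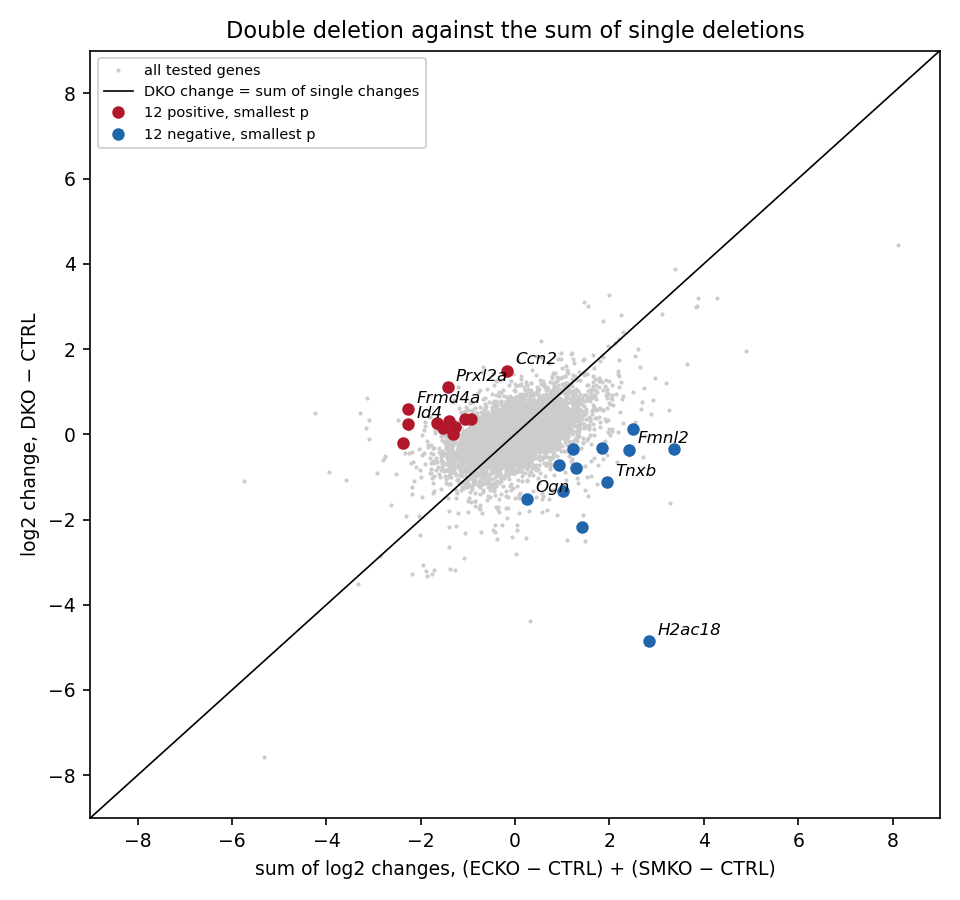
Each point is 1 of 6296 genes: the horizontal axis is the sum of the log2 changes of ECKO and SMKO against CTRL, the vertical axis the log2 change of DKO against CTRL, and the line marks equality. The 12 positive genes with the smallest p (red, above the line) and the 12 negative ones (blue, below it) include Id4 and Fmnl2 near a DKO change of 0, and Ccn2 and Ogn near a sum of 0.

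The other 11 genes with the smallest positive p did not pass (adjusted p 0.611 to 0.625). The clearest double-only gene among them was Ccn2, which encodes connective tissue growth factor, a matricellular protein induced by TGF-beta and by YAP with TEAD. Its level was 3632, 2953 and 2521 CPM in DKO, 1188, 1024 and 810.4 CPM in ECKO, 664, 1802 and 566 CPM in SMKO and 1139.6, 763 and 1337 CPM in CTRL. All DKO libraries lay above the other 9, and the highest of those was SMKO 2. The interaction was 1.67 ± 0.51, and DKO exceeded ECKO by a log2 difference of 1.59 ± 0.36 (adjusted p = 0.0399). Without SMKO 2 the interaction was 2.39 ± 0.39 and passed (adjusted p = 0.000664).

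Tns3, which encodes a tensin of focal adhesions, had 422, 438 and 207 CPM in DKO, 251, 201 and 179 CPM in ECKO, 197, 267 and 96.6 CPM in SMKO and 351, 247 and 357 CPM in CTRL, so that DKO, ECKO and SMKO each overlapped CTRL, with the means of the single deletions below it. Its interaction was 1.45 ± 0.43, and 1.70 ± 0.42 without SMKO 2 (adjusted p = 0.0339). The scaffold gene Sash1 had an interaction of 1.67 ± 0.42, with 146, 87.3 and 96.6 CPM in SMKO against 337, 159 and 238 CPM in CTRL. Frmd4a, a scaffold in cell polarity, had 2.86 ± 0.84 with 0 counts in SMKO 2. Fosl2, a subunit of the AP-1 transcription factor, had 1.41 ± 0.42.

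Pdia6, a disulfide isomerase of the endoplasmic reticulum, had 209, 195 and 133 CPM in DKO, 118, 93.4 and 110.2 CPM in ECKO, 85.1, 123 and 82.8 CPM in SMKO and 144, 138 and 134 CPM in CTRL, an interaction of 1.29 ± 0.37. Every ECKO and SMKO library lay below every CTRL library, while DKO overlapped CTRL. Ubl4a, part of the complex that hands tail-anchored proteins to the membrane, had 2.17 ± 0.63, and the ubiquitin ligase gene Rnf149 had 1.72 ± 0.52, with DKO above ECKO by a log2 difference of 1.58 ± 0.38 (adjusted p = 0.0467). Prxl2a, a peroxiredoxin-like redox gene, had 2.55 ± 0.65 and DKO above ECKO by a log2 difference of 2.13 ± 0.44 (adjusted p = 0.0399), and its SMKO 2 level lay in the DKO range. Without SMKO 2 the Prxl2a interaction was 3.56 ± 0.58 and passed (adjusted p = 0.000664). Rnf214 and Chic2 had 1.94 ± 0.60 and 1.32 ± 0.42.

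Among the other 11 negative genes, which did not pass either (adjusted p 0.578 to 0.611), the smallest p was that of Tnxb. It encodes tenascin-X, which sits on collagen fibrils. It had 13.6, 11.9 and 8.29 CPM in DKO, 66.6, 40.9 and 41.3 CPM in ECKO, 68.1, 5.14 and 96.6 CPM in SMKO and 21.9, 24.7 and 37.1 CPM in CTRL. DKO lay below every other library but SMKO 2, and all ECKO libraries lay above all CTRL libraries. The interaction was -3.07 ± 0.74, and -3.56 ± 0.61 without SMKO 2 (adjusted p = 0.000936).

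Ogn encodes osteoglycin, a small leucine-rich proteoglycan. Its level was 36.3, 49.8 and 45.6 CPM in DKO, 133, 185 and 163 CPM in ECKO, 138, 46.2 and 207 CPM in SMKO and 141, 125 and 111 CPM in CTRL, so that DKO and SMKO 2 lay below the other 8. DKO fell relative to ECKO, with a log2 difference of -1.86 ± 0.33 (adjusted p = 0.0136), and relative to CTRL, with -1.51 ± 0.34 (adjusted p = 0.0312). The interaction was -1.75 ± 0.46, and -2.14 ± 0.39 without SMKO 2 (adjusted p = 0.00208).

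The others included Dock9, an exchange factor for Cdc42, at -1.63 ± 0.47, and a log2 difference of DKO from ECKO of -1.47 ± 0.32 (adjusted p = 0.0399). The xenobiotic enzymes Gstt1, a glutathione transferase, and Sult1a1, a sulfotransferase, had -2.08 ± 0.57 and -2.15 ± 0.61. Ppl, the plakin periplakin, had -3.61 ± 1.02, and Ptpru, a receptor tyrosine phosphatase, had -3.71 ± 1.09. Mterf4, a factor of mitochondrial ribosome assembly, had -2.34 ± 0.68, Sltm, an RNA-binding protein of the SAFB family, had -1.58 ± 0.46, and Ccdc85b had -2.36 ± 0.69. The histone H2A gene H2ac18 had 0 counts in all 3 DKO libraries, in ECKO 1 and in CTRL 2 and CTRL 3, so its fitted contrast of -7.69 depends on the prior count; it belongs to a family of near-identical copies and its counts are uncertain. In Tnxb, Ogn, Ppl, Gstt1, Mterf4, Sult1a1 and Ptpru, SMKO 2 was below both other SMKO libraries. Without SMKO 2 the contrast passed for Gstt1 at -2.52 ± 0.46 (adjusted p = 0.00208), for Sult1a1 at -2.59 ± 0.52 (adjusted p = 0.00551) and for Ppl at -4.09 ± 0.86 (adjusted p = 0.00969). It passed likewise for Mterf4 at -2.78 ± 0.60 (adjusted p = 0.0138), for Ptpru at -4.20 ± 0.95 (adjusted p = 0.0187) and for Dock9 at -1.89 ± 0.47 (adjusted p = 0.035).

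**Figure D3:**
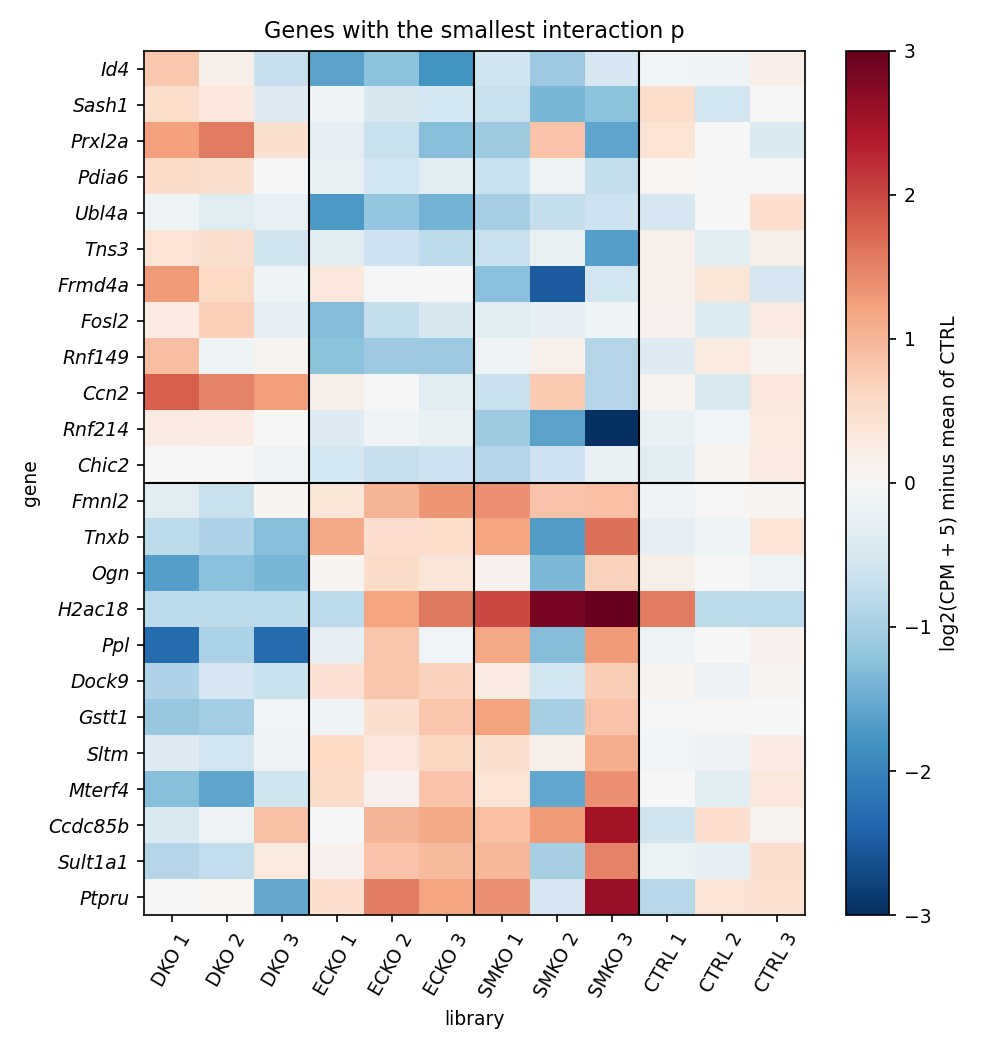
Levels of the 24 genes with the smallest positive (upper 12) and negative (lower 12) interaction p in each library, as log2(CPM + 5) minus the mean of the 3 CTRL libraries; colours end at 3 in either direction. In rows such as Pdia6, Fmnl2 and Sltm, ECKO and SMKO share a colour that DKO does not. SMKO 2 has the colour of DKO in Ccn2, Prxl2a, Tnxb, Ogn, Ppl and Mterf4.

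Endothelial genes leaned one way. All 16 of 16 tested endothelial markers had a negative interaction, with a median of -0.70 beside 0.03 over all genes. None passed; 7 were at an unadjusted p under 0.05, beside 3.18% of all genes in that direction: Prox1, Emcn, Kdr, Eng, Egfl7, Sox18 and Cavin2. The summed level of the list was 1629.9, 1824 and 1919.9 CPM in DKO, 2360.4, 2552 and 2881 CPM in ECKO, 2395, 1900.0 and 2954 CPM in SMKO and 1986, 2014 and 2340.3 CPM in CTRL. DKO and SMKO 2 had the 4 lowest sums, and the ECKO libraries, SMKO 1 and SMKO 3 lay above all CTRL libraries. In RNA from whole leaflets, fewer cells of a type and less RNA per cell cannot be told apart.

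The homeobox gene Prox1, which specifies lymphatic endothelium, had 9.08, 5.97 and 16.6 CPM in DKO, 15.4, 62.7 and 68.9 CPM in ECKO, 39.1, 15.4 and 55.2 CPM in SMKO and 42.3, 47.9 and 29.7 CPM in CTRL. Its interaction was -2.17 ± 0.72, and DKO fell relative to ECKO, with a log2 difference of -2.48 ± 0.53 (adjusted p = 0.0336). ECKO 1 and SMKO 2 lay within the DKO range.

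Kdr, the main VEGF receptor, had 13.6, 19.9 and 12.4 CPM in DKO, 51.2, 54.0 and 62.0 CPM in ECKO, 45.9, 20.5 and 41.4 CPM in SMKO and 40.8, 55.6 and 37.1 CPM in CTRL, with DKO below all other libraries by a narrow margin to SMKO 2. Its interaction was -1.48 ± 0.55 and its step of DKO against ECKO -1.76 ± 0.40 (adjusted p = 0.0399). Emcn, the sialomucin endomucin, had an interaction of -1.34 ± 0.47, and -1.72 ± 0.40 without SMKO 2 (adjusted p = 0.0238). For Egfl7, a secreted factor of endothelium, the values were -1.95 ± 0.72 and -2.44 ± 0.44 (adjusted p = 0.00184).

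Not every marker had the same shape. Cavin2, a coat protein of caveolae, had 136, 153 and 166 CPM in DKO, 317, 306 and 312 CPM in ECKO, 332, 154 and 304 CPM in SMKO and 338, 287 and 305 CPM in CTRL, low in DKO and SMKO 2 alone. Eng, the TGF-beta co-receptor endoglin, had 322, 265 and 286 CPM in DKO, 435, 379 and 436 CPM in ECKO, 441, 293 and 497 CPM in SMKO and 293, 317 and 312 CPM in CTRL, so that ECKO, SMKO 1 and SMKO 3 lay above all CTRL libraries, and its contrast was -0.92 ± 0.36. Pecam1, a junction protein of all endothelium, had 304, 313 and 415 CPM in DKO against 173, 218 and 319 CPM in CTRL, and an interaction of -0.48 ± 0.38. The count of negative markers was 14 to 17 of 16 or 17 tested when any 1 library was left out. Their median moved between -0.90 without SMKO 2 and -0.44 without ECKO 3. The count at an unadjusted p under 0.05 was 2 without SMKO 1, 5 without DKO 1, ECKO 2 or ECKO 3, and 8 without SMKO 2. Negative contrasts at that level among all tested genes numbered 385 of 7627 without SMKO 2 and 124 of 6009 without SMKO 1, against 200 of 6296 with all libraries. They numbered 181 of 7609 without DKO 1, 134 of 6007 without ECKO 2 and 139 of 5945 without ECKO 3. Without SMKO 2, 1 endothelial marker was positive at that level beside the 8 negative. Among all tested genes 456 of 7627 were positive at that level without SMKO 2. Shear-responsive endothelial genes had 6 of 9 negative (median -0.30), with Ptgs1, a cyclooxygenase, at -1.39 ± 0.47, Cyp1b1 at -1.01 ± 0.88 and Klf4 at 0.56 ± 0.38.

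Chaperones leaned the other way. All 15 of 15 cytosolic heat shock genes had a positive interaction, with a median of 0.34. None passed, and only Bag3 (1.09 ± 0.43), a co-chaperone of Hsp70, was at an unadjusted p under 0.05. Hspb8 had 0.93 ± 0.47 and Hspa1b 0.86 ± 0.50. Their summed level was 3591, 3603 and 3549.5 CPM in DKO, 2898, 2737 and 2849 CPM in ECKO, 2703, 3297 and 2305 CPM in SMKO and 2795, 2671 and 2942 CPM in CTRL, so that DKO lay above the other 9 libraries and SMKO 2 came next. Leaving out 1 library gave 12 to 15 positive members. Chaperones and response factors of the endoplasmic reticulum had 16 of 18 positive, a median of 0.49, and 2 at an unadjusted p under 0.05 beside 3.05% of all genes, Pdia6 and Hyou1 (1.67 ± 0.63). Creld2 had 0.91 ± 0.51. That count was 8 without SMKO 2, 4 without DKO 3 and 1 without SMKO 1 or CTRL 1. Among all tested genes, positive contrasts at that level numbered 456 of 7627 without SMKO 2 and 306 of 7557 without DKO 3. They numbered 149 of 6009 without SMKO 1 and 130 of 5944 without CTRL 1, against 192 of 6296 with all libraries.

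The summed melanocyte level was lowest in ECKO. Of 6 tested markers 5 had a positive interaction, with a median of 2.42, and 3 were at an unadjusted p under 0.05, beside 3.05% of all genes in that direction. Dct, a melanin enzyme, had 318, 149 and 153 CPM in DKO, 35.8, 23.3 and 45.9 CPM in ECKO, 298, 308 and 179 CPM in SMKO and 149, 303 and 74.3 CPM in CTRL, with ECKO below the other 9 libraries and DKO above ECKO by a log2 difference of 2.57 ± 0.49 (adjusted p = 0.0399). Its interaction was 2.04 ± 0.64. The melanosome genes Mlana and Pmel had 3.80 ± 1.37 and 2.81 ± 1.25, with ECKO levels of 0, 4.38 and 6.89 CPM and 0, 7.30 and 6.89 CPM; in SMKO 3, the shallowest library, both were at 0. The summed melanocyte level was 1008, 456 and 469 CPM in DKO, 138, 140.1 and 172 CPM in ECKO, 706, 1099 and 262 CPM in SMKO and 423, 813 and 267 CPM in CTRL. The count of 3 positive members became 6 of 8 tested without SMKO 2 or SMKO 3, 5 of 8 without CTRL 3, and 1 of 5 without SMKO 1. Over all tested genes the positive count at that level was 456 of 7627 without SMKO 2 and 185 of 7371 without SMKO 3. It was 215 of 7593 without CTRL 3 and 149 of 6009 without SMKO 1. The list was not uniform: without SMKO 2, 1 member was negative at that level beside the 6 positive. Without DKO 2, 1 of 6 tested members was negative and 4 were positive at that level. Negative contrasts over all tested genes numbered 385 of 7627 without SMKO 2 and 141 of 5982 without DKO 2. Positive ones numbered 110 of 5982 without DKO 2.

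**Figure D4:**
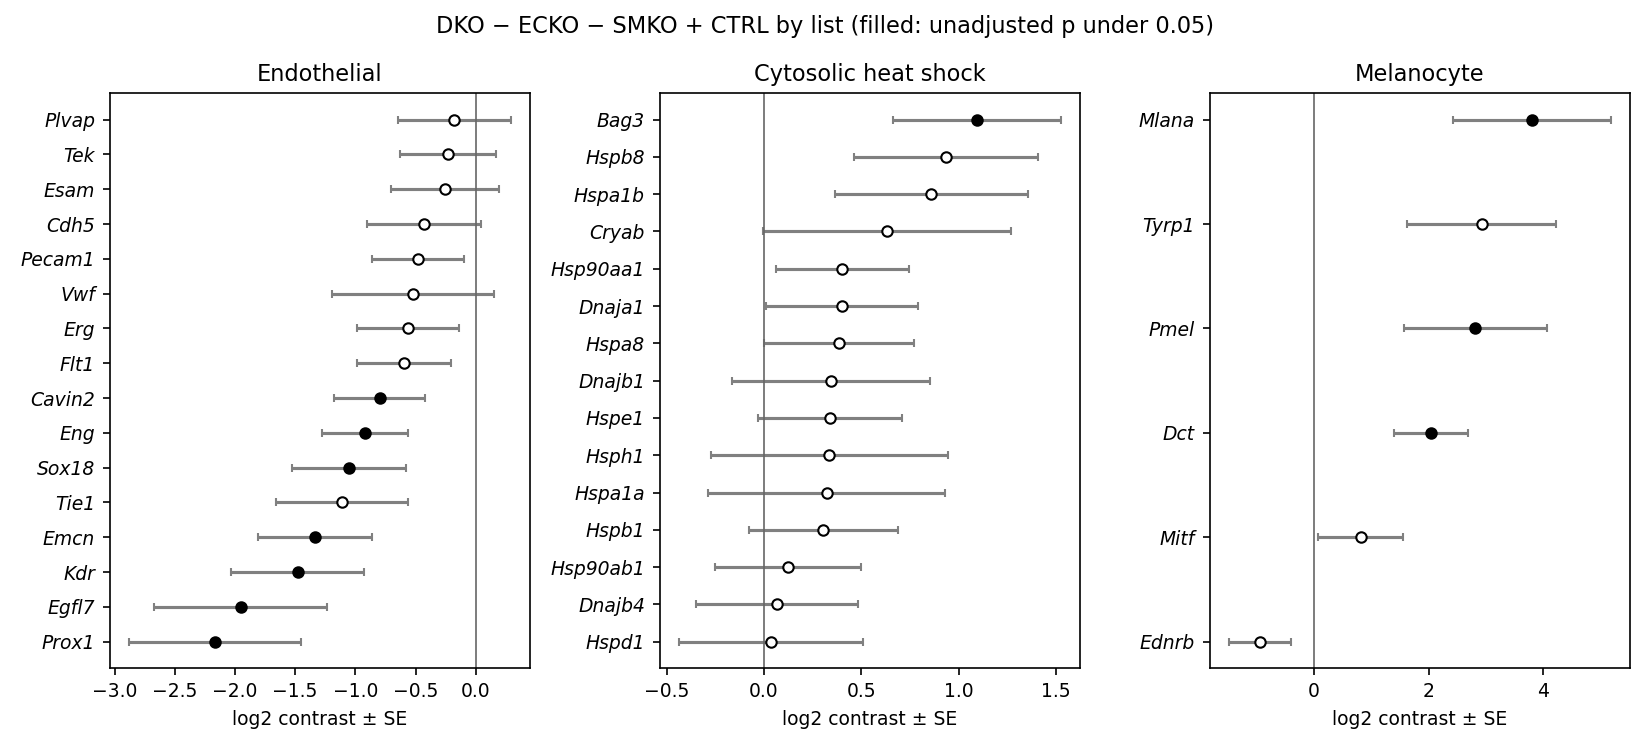
Interaction of each tested member of 3 lists (log2 contrast ± SE, horizontal axis), sorted within a list, with filled points at an unadjusted p under 0.05 and a line at 0. All 16 endothelial markers lie left of 0, all 15 cytosolic heat shock genes lie right of it, and 5 of 6 melanocyte markers lie right of it.

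Elastic fibre genes, the structure fibulin-4 builds, did not lean: 11 of 20 were positive and the median was 0.05. Lox, the crosslinking enzyme that fibulin-4 binds, had an interaction of 1.77 ± 0.76, Mfap4, a microfibril-associated protein, -1.14 ± 0.47, and Efemp1, the related fibulin-3 gene, -1.11 ± 0.55. Without SMKO 2 the Mfap4 contrast was -1.51 ± 0.37 and passed (adjusted p = 0.0339). Elastin (Eln) had 472, 558 and 377 CPM in DKO, 230.4, 158 and 209 CPM in ECKO, 174, 421 and 193 CPM in SMKO and 175, 136 and 178 CPM in CTRL, where SMKO 2 lay in the DKO range, and an interaction of 0.55 ± 0.42. Fibrillar collagens and their assembly genes were 12 positive of 23 (median 0.03), with Pcolce at 0.70 ± 0.41, P3h1 at 0.69 ± 0.45 and Col14a1 at 0.67 ± 0.45; without SMKO 2 they were 16 of 24, with a median of 0.37.

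Other matrix lists varied. Basement membrane genes had 12 of 14 positive (median 0.24), and DKO exceeded ECKO in Col18a1 by a log2 difference of 1.54 ± 0.36 (adjusted p = 0.0467; interaction 1.08 ± 0.53). Col15a1 had 731, 539.7 and 493 CPM in DKO, 215, 161 and 135 CPM in ECKO, 141, 760.0 and 110.4 CPM in SMKO and 199.7, 144 and 171 CPM in CTRL, and its interaction of 0.80 ± 0.84 became 2.18 ± 0.39 without SMKO 2 (adjusted p = 0.00137). Lama5 had 0.60 ± 0.60. Matrix proteases and their inhibitors had 14 of 17 positive (median 0.31), with the secreted protease Htra1 at 1.05 ± 0.37, Plat, tissue plasminogen activator, at 1.15 ± 0.53 and Ctsl at 0.64 ± 0.39; without the shallow SMKO 3 and CTRL 3 the count was 9 of 17. The versican and hyaluronan list had 6 of 7 positive (median 0.60), with Vcan at 0.93 ± 0.39, Tnfaip6 at 0.86 ± 0.49 and Cd44 at 0.77 ± 0.68, and Cd44 at 1.71 ± 0.42 without SMKO 2 (adjusted p = 0.0396). Small leucine-rich proteoglycans had 6 of 9 negative (median -0.11), with Aspn at -1.34 ± 0.99 and Lum at 0.41 ± 0.54 beside Ogn. Matricellular genes had 8 of 15 negative (median -0.25), with Matn2 at -1.11 ± 0.50.

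Among signalling lists, the BMP list held the called gene Id4. Its other Id members did not share the contrast: Id1 had -0.21 ± 0.42, Id2 -0.57 ± 0.39 and Id3 -0.33 ± 0.37. The ligands Bmp6 and Bmp4 had 1.17 ± 0.55 and -0.64 ± 0.42, and the list had 7 of 16 positive (median -0.02). Targets of YAP and TEAD had 9 of 17 positive (median 0.12), with Ccn2 and the factor Tead1 (0.98 ± 0.44) at an unadjusted p under 0.05 and the related target Ccn1 at 0.74 ± 0.68. The TGF-beta list had 13 of 19 positive (median 0.07), with the ligand Tgfb2 at 0.87 ± 0.47 and the activator Thbs1 at 0.98 ± 0.57, and Thbs1 at 1.71 ± 0.42 without SMKO 2 (adjusted p = 0.0339). The Wnt list had 13 of 22 positive (median 0.30). Its receptor Fzd4 had -2.34 ± 0.72, the receptor-removing ligase Znrf3 2.05 ± 0.82 and the target Axin2 0.90 ± 0.46. In the Notch list 7 of 11 were positive (median 0.13), and the receptors had opposite signs, with Notch3 at 1.80 ± 0.71 and Notch1 at -1.03 ± 0.41; the target Heyl had 0.64 ± 0.54.

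Immediate early genes had 11 of 17 positive (median 0.47), and 4 at an unadjusted p under 0.05, all positive, beside 3.05% of all genes in that direction. With a minimum of 30 counts 4 of 10 were positive and the median was -0.11, and without DKO 2 it was 9 of 16 with a median of 0.08. Fos, an AP-1 subunit, had 22.7, 39.8 and 20.7 CPM in DKO, 51.2, 21.9 and 52.8 CPM in ECKO, 6.81, 5.14 and 27.6 CPM in SMKO and 37.9, 104 and 29.7 CPM in CTRL, and an interaction of 2.51 ± 0.84. The zinc finger factor Egr2 had 3.00 ± 0.97. The count of 4 became 1 of 16 tested without DKO 2, 1 of 15 without CTRL 2 and 2 of 17 without SMKO 1. Over all tested genes the positive count at that level fell as well. It was 110 of 5982 without DKO 2, 160 of 5988 without CTRL 2 and 149 of 6009 without SMKO 1. With all libraries it was 192 of 6296.

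In the IGF axis, 5 of 9 members were negative (median -0.14). The growth factor Igf2 had 4.54, 13.9 and 33.2 CPM in DKO, 399, 378 and 337 CPM in ECKO, 607, 15.4 and 704 CPM in SMKO and 386, 218 and 498 CPM in CTRL. The 3 DKO libraries and SMKO 2 lay below the other 8 libraries by a wide margin. Its interaction was -4.70 ± 1.45 (adjusted p = 0.625), and -5.29 ± 0.49 without SMKO 2 (adjusted p = 5.29e-08). Igfbp3, which binds IGFs, had -2.28 ± 1.11, and -2.84 ± 0.55 without SMKO 2 (adjusted p = 0.0043).

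Of metabolic and uptake genes, Trf encodes transferrin, the iron carrier. It had 795, 544 and 1062 CPM in DKO, 261, 295 and 309.9 CPM in ECKO, 267, 534 and 276 CPM in SMKO and 342, 261 and 327 CPM in CTRL, with DKO above all others by a narrow margin to SMKO 2. DKO exceeded ECKO by a log2 difference of 1.46 ± 0.29 (adjusted p = 0.0276) and CTRL by 1.37 ± 0.29 (adjusted p = 0.0225), and the interaction was 1.23 ± 0.42. Without SMKO 2 it was 1.65 ± 0.37 and passed (adjusted p = 0.0192). The iron list had 6 of 10 positive (median 0.17), with Hfe at -1.05 ± 0.47 and Aco1 at 0.92 ± 0.72.

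Cd36, a receptor for fatty acids and oxidised lipoprotein, had 4.54, 19.9 and 8.29 CPM in DKO, 41.0, 49.6 and 64.3 CPM in ECKO, 76.6, 46.2 and 27.6 CPM in SMKO and 61.2, 75.7 and 52.0 CPM in CTRL, without overlap between DKO and the rest. DKO fell relative to ECKO, with a log2 difference of -1.99 ± 0.44 (adjusted p = 0.0399), and relative to CTRL, with -2.30 ± 0.43 (adjusted p = 0.00971), with an interaction of -1.87 ± 0.57. The lipid list had 9 of 15 positive (median 0.20), with the sterol genes Hmgcs1 at 1.49 ± 0.71 and Insig1 at 1.32 ± 0.65. Glycolysis and hypoxia genes had 11 of 17 positive (median 0.17), with Pfkp at 1.03 ± 0.54, Eno1 at 0.65 ± 0.38 and Egln3 at 1.25 ± 0.82. Autophagy and lysosome genes had 9 of 17 (median 0.10), with Npc1 at -0.86 ± 0.54. Cell cycle genes had 3 of 5 (median 0.33), with the inhibitor Cdkn1a at 1.67 ± 0.59 and Ccnd2 at 0.33 ± 0.36. Mitochondrially encoded genes were negative in 12 of 13 (median -0.40), but in 7 of 13 without ECKO 1, and 0 were at an unadjusted p under 0.05.

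The immune lists differed in sign, and in the complement, MHC and macrophage lists 0 members were at an unadjusted p under 0.05. Complement genes had 11 of 12 negative (median -0.23), with C1qb at -0.72 ± 0.45 and the inhibitor Serping1 at -0.59 ± 0.36. MHC genes had 10 of 12 (median -0.36), with H2-K1 at -0.62 ± 0.43; without DKO 2 the count was 7. Macrophage markers had 10 of 14 (median -0.24), with Mrc1 at -0.71 ± 0.48 and Tyrobp at -0.67 ± 0.55; without DKO 2 the count was 5 of 13 and the median 0.12. Their summed level was 2924, 1245 and 2326 CPM in DKO, 2094, 1329 and 1265 CPM in ECKO, 2225, 4914 and 1380.2 CPM in SMKO and 1313, 1754 and 1813 CPM in CTRL, with the highest value in SMKO 2. Interferon-stimulated genes had 9 of 15 positive (median 0.09), with Stat2 at -1.50 ± 0.65 and Irf1 at -1.26 ± 0.62. Chemokines and cytokines had 3 of 6 (median 0.04); the monocyte attractant Ccl2 had 2.26 ± 0.84, with DKO above ECKO by a log2 difference of 2.38 ± 0.56 (adjusted p = 0.0426), and the alarmin Il33 had -2.43 ± 0.84.

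Valve interstitial markers had 10 of 13 positive (median 0.19), with the valve and cartilage factor Sox9 at 1.12 ± 0.38 and the receptor Pdgfra at -1.30 ± 0.61; without SMKO 2 the Pdgfra contrast was -1.76 ± 0.41 (adjusted p = 0.0239). Contractile markers had 5 of 8 negative (median -0.15), with Acta2, smooth muscle actin, at 0.83 ± 0.35 and Myl9 at -1.14 ± 0.57, while Myh11 and Cnn1, markers of mature smooth muscle, were too low to test. Blood cell genes had 5 of 5 negative (median -3.59). Their summed level was 263, 141 and 506 CPM in DKO, 97.3, 5609 and 3391 CPM in ECKO, 2322, 642 and 497 CPM in SMKO and 673, 269 and 3492 CPM in CTRL, spread widely within each group, and globin copies such as Hbb-bt (-4.90 ± 1.89) share reads. Single tested markers of lymphocytes (Ptprc, -0.90 ± 0.54), heart muscle (Tnnt2, -1.99 ± 1.39) and fat (Lpl, 0.49 ± 1.28) and the 3 of nerve and Schwann cells (median 0.40) did not pass. The Y-linked genes Eif2s3y and Ddx3y had 4.74 ± 4.51 and 3.30 ± 5.71, with 0 in all ECKO libraries. The part of mitochondrial share, sex, depth and blood in any contrast above was not tested gene by gene; with a term for libraries holding Y-linked counts, or with log10 depth as a term, the 2 calls held.

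Leaving out SMKO 2 changed the count of calls more than any other library. Without it 62 genes were called (31 positive and 31 negative; adjusted p 5.29e-08 to 0.0483), against 0 to 2 without any other single library. Both Id4 and Fmnl2 were among them, and 60 of the 62 were also tested with all libraries, with the same sign in all 60. In 58 of these 60 (96.7%) SMKO 2 lay beyond both other SMKO libraries toward DKO, against 57.1% of all genes; leaving SMKO 2 out favours such genes, so this is a description.

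The genes named next were chosen after their values were seen, and the first value of each is without SMKO 2. With a positive contrast came the matrix and protease inhibitor genes Timp1 (2.51 ± 0.41), Col8a1 (3.03 ± 0.51), Serpine2 (2.01 ± 0.39) and Timp3 (2.03 ± 0.45), and the basement membrane collagen Col4a2 (1.86 ± 0.37). Ly6a, which marks stem-like fibroblasts and endothelium in mouse, had 2.66 ± 0.39. With all libraries these contrasts were 0.92 ± 0.91 for Timp1, 0.57 ± 1.29 for Col8a1, 0.22 ± 0.97 for Serpine2, 0.72 ± 0.73 for Timp3, 0.55 ± 0.75 for Col4a2 and 0.80 ± 1.12 for Ly6a. With a negative contrast came Igf2, Igfbp5 (-2.42 ± 0.41), Myoc, which encodes myocilin (-2.79 ± 0.42), and Enpp2, the enzyme that makes lysophosphatidic acid (-2.24 ± 0.39). With all libraries these were -1.91 ± 0.96 for Igfbp5, -2.33 ± 0.63 for Myoc and -1.71 ± 0.83 for Enpp2, and none passed.

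The level of Timp1 was 377, 418 and 319 CPM in DKO, 113, 101 and 91.8 CPM in ECKO, 66.4, 452 and 55.2 CPM in SMKO and 94.7, 83.5 and 141 CPM in CTRL. For Myoc it was 22.7, 37.8 and 29.0 CPM in DKO, 128, 187 and 106 CPM in ECKO, 265, 51.4 and 235 CPM in SMKO and 137, 206 and 156 CPM in CTRL. In both genes SMKO 1 and SMKO 3 lay on the far side of every ECKO and CTRL library from DKO, while SMKO 2 lay beyond DKO in Timp1 and next to it in Myoc. SMKO 2 held 263589 counts and a mitochondrial share of 24.14%, within the range of the other libraries. Its TMM factor of 0.739 was the lowest, against 0.842 to 1.19 in the others, and the tested genes held 95.03% of its counts, against 92.26% to 94.47% in the others. The part of these values in its position was not tested.

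**Figure D5:**
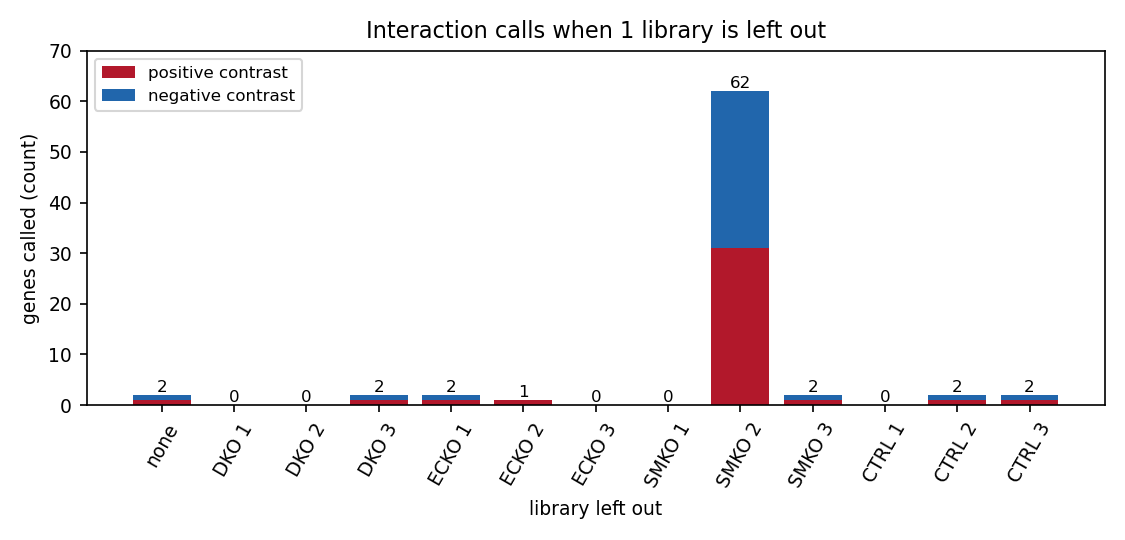
Number of genes called for the interaction (adjusted p under 0.05, stacked by sign) with all 12 libraries (none) and with each library left out in turn. The count is 2 with all libraries, 0 to 2 without 11 of them, and 62 without SMKO 2.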

How the data were processed

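RNA from aortic valve leaflets was measured in 12 libraries. The authors deposited 1 table of 41709 genes with whole-number total counts and TPM per library, per the file headers; every result here rests on the counts, and the deposited TPM values were not used. The submitters' processing notes name the build GRCm39. Aligner, counter and annotation: not given in the sources used here. Strand was not kept by the library kit.

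The edgeR filter filterByExpr (minimum of 10 counts in 3 libraries, adjusted for depth) kept 6296 of the 16588 genes that had a count, with 93.12% of counts. Counts were scaled by TMM and fitted by edgeR 4.0.16 in R 4.3.3 (quasi-likelihood F test, robust, 1 group term over 12 libraries, 8 residual degrees of freedom, Benjamini-Hochberg adjustment over all tested genes). The common biological coefficient of variation was 0.246. Standard errors are of log2 contrasts, and levels are TMM-scaled CPM. Each standard error is the absolute log2 contrast divided by the square root of its F statistic, so it was derived from the test. The interaction of 3 libraries a group has the precision its SE gives. Replicates of a group differed by more than sampling noise (chi-square per degree of freedom 1.85 to 9.64), so none were merged. The pipeline was tested on simulated data.

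The contrast, the 38 gene lists and the naming rule were chosen with earlier results of these data known, so no list is independent evidence. Named were the 12 genes of each sign with the smallest interaction p, predicted gene models left out, up to 3 members with the smallest p in each list, and Efemp2; further list members are named as such. Alternatives were RLE and upper-quartile scaling, other filters, DESeq2 1.42.0, limma 3.58.1 (voom, with library weights, and log2 CPM with a prior count of 2), a replicate block, depth and Y-linked terms, no mitochondrial genes, and each library left out. Leaving out SMKO 3 and CTRL 3 together was chosen after seeing the data.

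Exon overlaps were read from an older annotation, which matched 38619 of the identifiers. Of 104 genes checked, 19 overlap another gene. The other gene lies on the opposite strand for Bmp6, Ccdc85b, Col4a2, Cryab, Efemp2, Egfl7, Eng, Matn2, Mfap4, Mterf4, Myoc, Pdia6, Pmel, Rnf214, Sult1a1 and Timp3, and on the same strand for Igf2, Trf and Ubl4a; reads of these pairs cannot be told apart. Ccn2 had no promoter entry.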

Additional observations from a re-analysis of the deposited data

Results flagged for a closer look

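In Id4 and Fmnl2 the effect of losing fibulin-4 in smooth muscle differed between mice whose endothelium also lacked it and mice whose endothelium kept it, by the interaction test itself. For Id4 the log2 change was 1.77 ± 0.30 with the endothelial deletion (DKO against ECKO) and -0.73 ± 0.31 without it (SMKO against CTRL), a difference of 2.50. For Fmnl2 it was -1.50 ± 0.36 with the endothelial deletion and 1.29 ± 0.34 without it, a difference of -2.78. Dixon's test of an outlying sample was not run on the groups of 3 libraries. The position of SMKO 2 is given with the results.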

How the results depend on the processing

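The interaction called 2 genes, and 2 under RLE scaling, upper-quartile scaling, limma-voom, log10 depth as a term, a Y-linked term, and without mitochondrially encoded genes. It called 28 with no filter on low counts, among them Prxl2a, Tnxb, Dct, Il33, Mlana, Sash1, Cdkn1a, Egr2 and H2ac18. With a minimum of 30 counts, which left Fmnl2 untested, it called 0. It called 1 (Id4) by DESeq2, 0 by limma on log2 CPM and 7 by limma-voom with library weights. Without SMKO 3 and CTRL 3 it called 1, and leaving out 1 library gave 0 to 62. Genes at an unadjusted p under 0.05 numbered 392, against 851 with no filter, 140 with the minimum of 30, 210 by DESeq2, 832 with library weights and 251 to 841 without 1 library. DKO against SMKO called 0, against 32 with no filter, 3 by DESeq2, 54 with library weights and 0 to 128 without 1 library. DKO against ECKO called 36, against 173 with no filter, 8 with the minimum of 30, 0 by limma on log2 CPM, 95 with library weights, 10 with depth as a term, 73 with the Y-linked term, 69 without SMKO 3 and CTRL 3, and 0 to 150 without 1 library. ECKO against CTRL called 0, against 15 with no filter, 2 by DESeq2, 1 without SMKO 3 and CTRL 3 and 0 to 2 without 1 library; SMKO against CTRL called 0, against 8 with no filter and 0 to 1 without 1 library. The causes of these moves were not tested.

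Some values turned round: the Efemp2 interaction was 1.04 by limma on log2 CPM and ranged from -2.68 (without SMKO 2) to 1.65 (without SMKO 1) when 1 library was left out, negative macrophage markers numbered 5 of 13 without DKO 2, and the median of the immediate early genes was -0.11 with the minimum of 30 counts.

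With the replicate number as a block the interaction called 2 genes, Id4 and Fmnl2, 436 genes were at an unadjusted p under 0.05, and DKO against ECKO called 50. The labels give no meaning to the shared numbers, and the libraries were not treated as paired. Of 18 same-numbered pairs, 5 had a correlation of deviations from the group means over 0.1 (range -0.13 to 0.151). Other pairs ranged from -0.176 to 0.146. The highest of these was ECKO 2 with SMKO 1, and the next was DKO 1 with SMKO 2 at 0.1. Also, 11 of 12 libraries correlated best with one of their own number. Both are a hint of pairing from the data and not from the design. The shallowest libraries were SMKO 3 (74827 counts) and CTRL 3 (159857 counts), and without either alone the interaction still called 2 genes.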
